A study of Mus musculus with 9 samples.

Results

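The miR-200 family is a set of epithelial microRNAs made from 5 hairpins. Its 8 members were taken by name from the deposited count tables, out of 1607 known mouse miRNA names with at least 1 read. They are mmu-miR-429-3p, mmu-miR-200a-3p, mmu-miR-200a-5p, mmu-miR-200b-3p and mmu-miR-200b-5p of one genomic cluster, and mmu-miR-200c-3p, mmu-miR-141-3p and mmu-miR-141-5p of the other, written below without the species prefix. The 5p arms of the miR-200c and miR-429 hairpins are not among them and are given separately. The libraries hold small RNA of whole mouse kidneys at embryonic day 16.5 (E16.5). There were 3 libraries with the genotype DROSHA knockout, 3 with a DROSHA-E1147K transgene and 3 of wild-type controls. Per the labels, all 9 came from the same tissue and stage, and the labels name no further allele, promoter or Cre line, so the cells in which DROSHA was lost or mutated are not known here. Small RNA reads give no measure of DROSHA mRNA, so the targeted gene could not be checked.

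DROSHA, a nuclear RNase III, cuts miRNA hairpins out of their primary transcripts, and E1147K changes a residue of its RNase IIIb domain. The miR-200 family is known for keeping cells epithelial: its members repress Zeb1 and Zeb2, transcription factors that silence E-cadherin and other epithelial genes. In the kidney the family is enriched in the epithelium of the ureteric bud, collecting duct and tubules. It is transcribed from separate loci, each as a joint primary transcript, so that hairpins of a locus are usually made together.

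The mature sequences (RefSeq, GRCm38.p6) show how the members relate to each other and why reads of close relatives are hard to separate. Capitals mark the seed, bases 2 to 8 from the 5′ end, which leads pairing with target mRNAs.
miR-429-3p: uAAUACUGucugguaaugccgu
miR-200b-3p: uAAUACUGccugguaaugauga
miR-200c-3p: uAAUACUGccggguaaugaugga
miR-200a-3p: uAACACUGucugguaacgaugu
miR-141-3p: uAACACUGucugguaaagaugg
miR-200a-5p: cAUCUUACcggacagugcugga
miR-200b-5p: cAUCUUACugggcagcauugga
miR-141-5p: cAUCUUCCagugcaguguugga
The 3p arms fall into 2 seed groups that cut across the genomic clusters. miR-429-3p, miR-200b-3p and miR-200c-3p share one seed, and miR-200a-3p and miR-141-3p share the other, which differs by U4C in miR-429-3p against miR-200a-3p (positions from 1 at the 5′ end). No other mouse miRNA among the 1679 mature RefSeq names carried either seed. miR-200a-5p and miR-200b-5p share a seed of their own. Between clusters the closest pairs are miR-200b-3p and miR-200c-3p, which differ at U11G and A22G, and miR-200a-3p and miR-141-3p, which differ at C17A and U22G, each with 20 of 22 positions the same. The sources used here do not say how reads that match more than 1 name were counted, so the values within these pairs may share reads and are uncertain to that extent.

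The miR-200b/miR-200a/miR-429 cluster lies on the minus strand of chr4:156053905-156055750 (mm10), a stretch of 1846 bases with 3 hairpins. In GENCODE vM21 it sits in an intron of Ttll10, a tubulin tyrosine ligase-like gene, and within the noncoding transcript Gm13648 on the same strand. The miR-200c/miR-141 cluster, 2 hairpins in 477 bases, lies on the minus strand of chr6:124717914-124718390, in an intron of the antisense RNA Gm15884. It stands between Phb2, a prohibitin gene that ends 964 bases from Mir141, and Ptpn6, a phosphatase gene 2317 bases from Mir200c. One hairpin of each cluster, with both mature arms in capitals, shows the stem from which DROSHA releases them.
Mir200b: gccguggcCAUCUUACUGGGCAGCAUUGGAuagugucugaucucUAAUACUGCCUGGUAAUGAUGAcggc
Mir200c: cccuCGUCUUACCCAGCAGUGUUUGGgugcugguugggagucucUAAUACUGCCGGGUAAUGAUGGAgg

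Libraries held 24350500 to 34896599 reads of known mouse miRNAs. Levels are given as counts per 1000000 miRNA reads after TMM scaling (CPM, a scaling that evens out composition between libraries), with SD over 3 libraries. Fold changes are log2 values from edgeR's quasi-likelihood fit of 955 miRNAs over all 9 libraries, and p-values are adjusted over the 955 (Benjamini-Hochberg). All 8 members passed the filter on low counts. Whether each library is its own animal is not stated in the labels, and the spread behind the p-values may therefore be technical. In whole kidneys, fewer cells of a type and less RNA per cell cannot be told apart. CPM levels are relative to the other miRNAs of a library, so a change shared by most miRNAs would not be seen.

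As a share of miRNA reads the family took 3.28%, 3.10% and 1.34% in the knockout libraries, 3.14%, 2.55% and 3.23% in the transgene libraries, and 3.71%, 3.17% and 3.50% in the controls. Knockout 3 was the lowest of the 9, and transgene 2 came next. Most of it came from chromosome 4: the miR-200b/miR-200a/miR-429 members made up 1.03% to 2.77% of miRNA reads in the knockout, 2.23% to 2.86% in the transgene and 2.87% to 3.43% in the control libraries. The miR-200c/miR-141 members made up 0.310% to 0.528%, 0.273% to 0.487% and 0.284% to 0.304% in the same order of groups.

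miR-429-3p was the most abundant member in each of the 9 libraries. Its level was 11769, 13872 and 5241 CPM in knockouts 1, 2 and 3, 17585, 10738 and 12581 CPM in transgenes 1, 2 and 3, and 18264, 17254 and 16090 CPM in controls 1, 2 and 3. Every knockout library lay below every control, while transgene 1 stood among the controls. The mean was 10294 ± 4501 CPM in knockout, 13635 ± 3543 CPM in transgene and 17203 ± 1088 CPM in control kidneys (SD, n = 3 each). The log2 fold change was -0.74 (SE 0.34) for knockout against control and -0.34 (SE 0.34) for transgene against control. The transgene value was -0.61 without transgene 1, -0.21 without transgene 3 and -0.12 without transgene 2.

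miR-200a-3p, the second in abundance, was at 9585, 10152 and 3258 CPM in the knockout, 9911, 6018 and 9049 CPM in the transgene and 14263, 10877 and 14553 CPM in the control libraries. Here all 6 libraries with altered DROSHA lay below the 3 controls, with knockout 2 and control 2 the closest. The log2 fold change was -0.79 (SE 0.40) for knockout and -0.67 (SE 0.40) for transgene against control, the transgene value being -0.41 without transgene 2. Its opposite arm, miR-200a-5p, was at 167, 208 and 71.4 CPM in the knockout, 205, 155 and 177 CPM in the transgene and 230, 313 and 217 CPM in the control libraries. This arm also showed no overlap with the controls in either group, with log2 fold changes of -0.77 (SE 0.38) for knockout and -0.50 (SE 0.38) for transgene, the transgene value being -0.33 without transgene 2.

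miR-200b-3p was at 3055, 3057 and 1390 CPM in the knockout, 3577, 2646 and 2447 CPM in the transgene and 4579, 3841 and 3695 CPM in the control libraries. Neither altered group overlapped with the controls, and the gap was smallest for transgene 1. Its log2 fold change was -0.69 (SE 0.31) for knockout and -0.48 (SE 0.31) for transgene against control, the transgene value ranging from -0.72 without transgene 1 to -0.31 without transgene 3. The arm miR-200b-5p overlapped instead, because control 3 was the lowest library of all: 139, 128 and 62.0 CPM in the knockout, 138, 159 and 159 CPM in the transgene and 212, 219 and 58.2 CPM in the control libraries. Its log2 fold changes were -0.57 (SE 0.49) for knockout and -0.10 (SE 0.49) for transgene against control. Without control 3 they were -0.98 and -0.53, and without control 2 they were -0.32 and 0.13.

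The members on chromosome 6 did not follow this order. miR-200c-3p was at 4371, 3108 and 2780 CPM in the knockout, 2802, 2559 and 3994 CPM in the transgene and 2844, 3191 and 2890 CPM in the control libraries. Knockout 1 and transgene 3 were the highest, and the other 4 libraries with altered DROSHA lay within or just below the control range. The mean was 3420 ± 840 CPM in knockout, 3118 ± 768 CPM in transgene and 2975 ± 188 CPM in control kidneys (SD, n = 3 each), with log2 fold changes of 0.20 (SE 0.24) for knockout and 0.07 (SE 0.24) for transgene against control.

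miR-141-3p, its neighbour, was at 348, 203 and 215 CPM in the knockout, 184, 231 and 314 CPM in the transgene and 255, 239 and 297 CPM in the control libraries. The same libraries, knockout 1 and transgene 3, were highest, and each group spanned the controls. The log2 fold change was -0.05 (SE 0.30) for knockout and -0.12 (SE 0.30) for transgene, and both turned positive when libraries were scaled to total miRNA counts. The rare arm miR-141-5p, at 12.6 to 20.6 CPM in the knockout, 13 to 21.5 CPM in the transgene and 11.9 to 21.6 CPM in the control libraries, had fold changes of 0.06 (SE 0.33) and 0.02 (SE 0.33). Reads behind it numbered 323 to 626 per library.

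**Figure D1:**
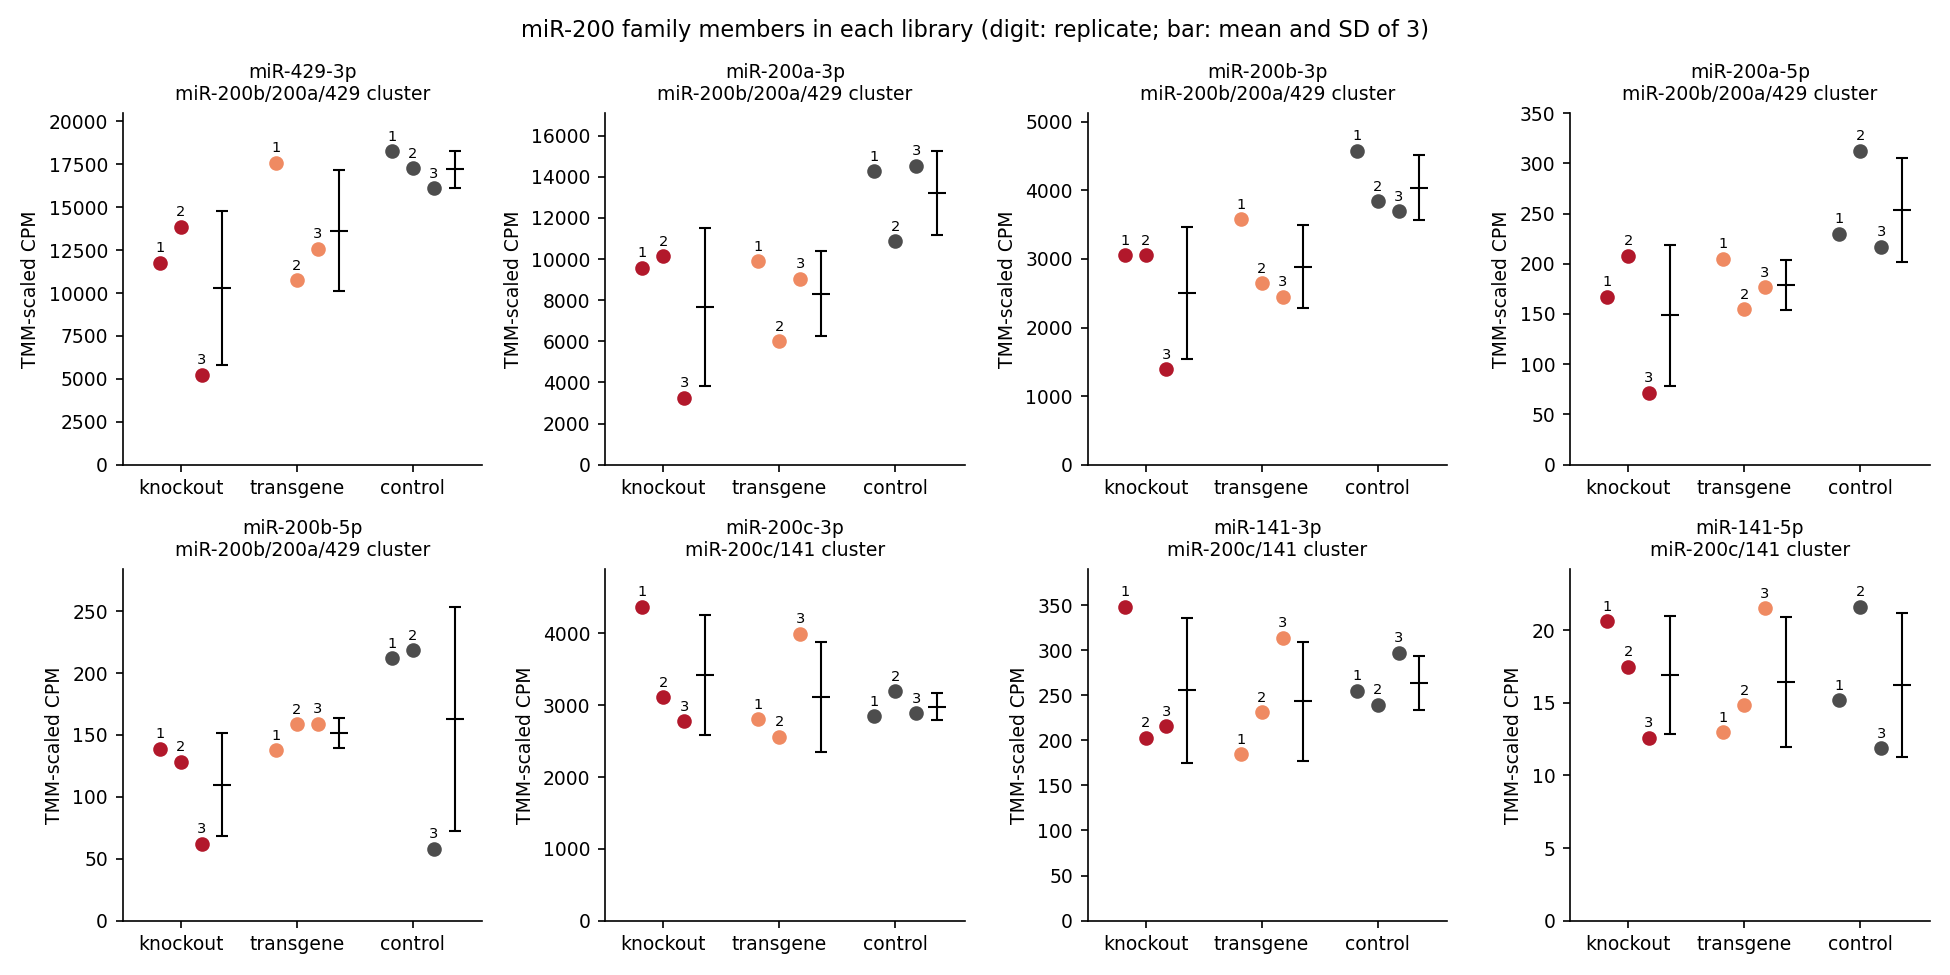
TMM-scaled CPM of each of the 8 members (y axes, linear from 0) in the 3 knockout, 3 transgene and 3 control libraries; digits are replicate numbers and bars are the mean and SD of 3. Knockout 3 is the lowest library for miR-429-3p, miR-200a-3p, miR-200b-3p and miR-200a-5p, and knockout 1 and transgene 3 are the highest for miR-200c-3p and miR-141-3p.

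The other arms of these hairpins were scarce. miR-200c-5p was at 10.8, 10.5 and 6.01 CPM in the knockout, 6.99, 9.85 and 13.3 CPM in the transgene and 8.36, 13.6 and 5.41 CPM in the control libraries, with a log2 fold change of -0.0019 (SE 0.42) for knockout and 0.14 (SE 0.42) for transgene. miR-429-5p had 2 to 19 reads in the 8 libraries that listed it and none in knockout 2, where a count of 0 allows up to 3 reads. It was not tested. The most abundant member thus had the least abundant opposite arm.

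By level within a control kidney the order was miR-429-3p, miR-200a-3p, miR-200b-3p and miR-200c-3p, then miR-141-3p, miR-200a-5p and miR-200b-5p, and last miR-141-5p. Control ranges of miR-141-3p, at 239 to 297 CPM, and miR-200a-5p, at 217 to 313 CPM, overlapped, so these neighbours do not differ beyond their spread. In the knockout libraries miR-200c-3p took the third place from miR-200b-3p in all 3, as it did in 1 of the 3 transgene libraries. Among all miRNA names, miR-429-3p ranked 21 to 43 in the knockout, 21 to 28 in the transgene and 21 to 26 in the control libraries. Mature miRNAs are of nearly equal length, but library preparation captures sequences unequally, so levels of different members are an order of reads and not of molecules.

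Against the controls, none of the 8 members passed the threshold of 0.05 in edgeR's quasi-likelihood test, none had an unadjusted p under 0.05, and DESeq2 also called 0. In knockout against control edgeR called 0.0% of the 955 miRNAs and DESeq2 called 113 of all miRNAs, and 25.7% had an unadjusted p under 0.05, of which the lower ones were 10.1% of the 955. For transgene against control the shares were 0.0% called by edgeR, with 4 miRNAs called by DESeq2, and 8.8% with an unadjusted p under 0.05, with 3.56% lower. The smallest values in the family were those of miR-200b-3p (unadjusted p = 0.0544, edgeR adjusted p = 0.201) and miR-429-3p (unadjusted p = 0.0574, edgeR adjusted p = 0.205), both for knockout against control. In the transgene comparison the edgeR adjusted p of the members was between 0.580 and 0.988.

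All members on chromosome 4 had negative fold changes against control, while those on chromosome 6 lay on both sides of 0. For knockout against control all 5 members on chromosome 4 were negative, between -0.79 and -0.57 with a median of -0.74, while the 3 on chromosome 6 lay between -0.05 and 0.20 with a median of 0.06. Transgene kidneys gave 5 negative values on chromosome 4, between -0.67 and -0.10 with a median of -0.48. On chromosome 6 the values lay between -0.12 and 0.07 with a median of 0.02, so the ranges of the clusters overlapped. miR-141-3p was negative in both comparisons. Of the 955 miRNAs tested, 51.1% were negative for knockout and 53.3% for transgene, with medians of -0.03 and -0.04. TMM scaling itself places most miRNAs near 0, so these values do not show whether miRNAs as a whole changed. Both comparisons share the same 3 control libraries.

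In knockout kidneys 4 of the 8 members had all libraries below all controls (miR-429-3p, miR-200a-3p, miR-200a-5p and miR-200b-3p), where 15.6% of all miRNAs tested did. In transgene kidneys it was 3 of 8 (miR-200a-3p, miR-200a-5p and miR-200b-3p), where 12.0% of all did. All of these come from the chromosome 4 cluster, and miR-200a-3p and miR-200a-5p from 1 hairpin, so they do not count as separate cases. No member had all libraries above the controls, against 12.9% and 11.9% of all. With scaling to total miRNA counts, which moved the median fold of all miRNAs to 0.19 for knockout and 0.18 for transgene, 1 member was lower without overlap in the knockout (miR-429-3p), where 8.27% of all were, and 2 in the transgene (miR-200a-5p and miR-200b-3p), where 4.19% of all were. miR-200c-3p then stood above all controls in the knockout, as did 21.2% of all miRNAs. With scaling to all counted reads 3 members were lower in the knockout (miR-429-3p, miR-200a-5p and miR-200b-3p), where 11.2% of all were, and 2 in the transgene (miR-200a-5p and miR-200b-3p), where 6.26% of all were. The sign of the chromosome 4 members was negative for knockout under all 4 scalings tried, and for transgene except miR-200b-5p, which was 0.14 with total miRNA counts and 0.08 with all counted reads.

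**Figure D2:**
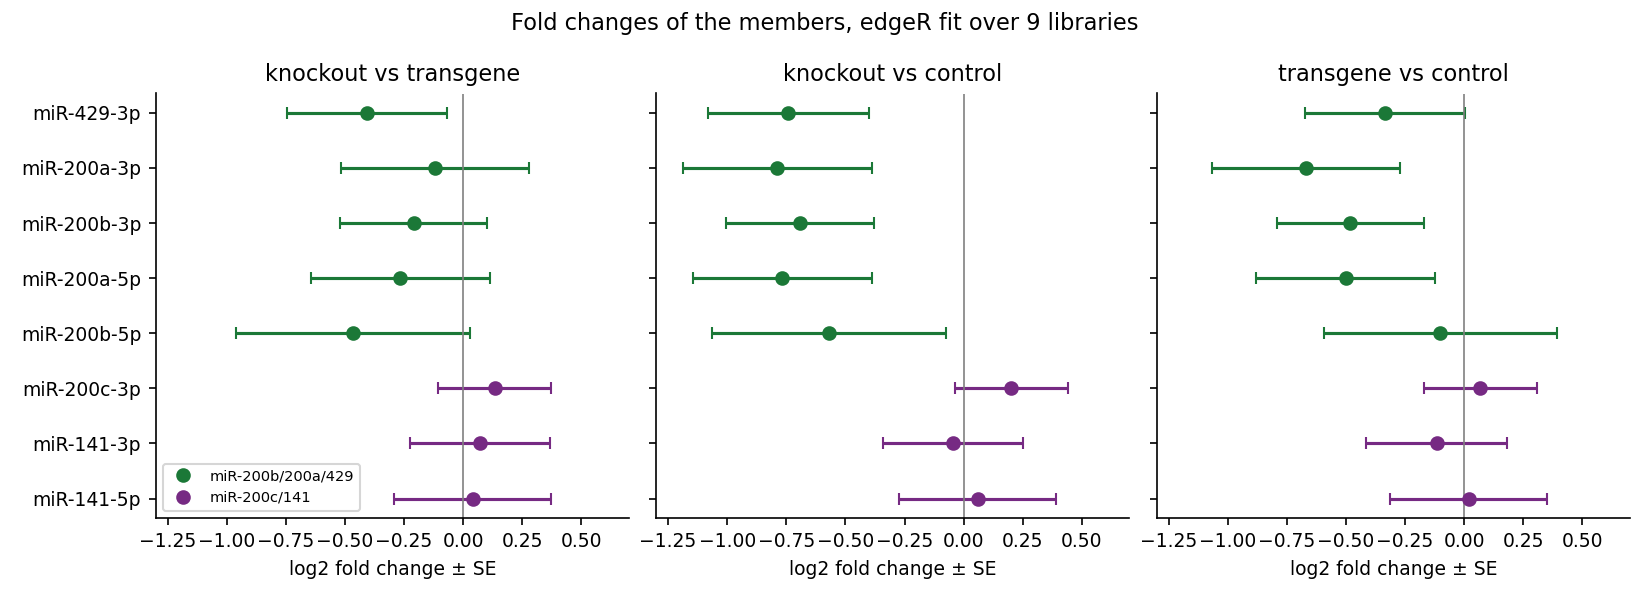
Log2 fold changes (x axis) of the 8 members (y axis) from the edgeR fit, with bars of 1 SE, for knockout against transgene, knockout against control and transgene against control; green marks the miR-200b/miR-200a/miR-429 cluster and purple the miR-200c/miR-141 cluster. Green points lie below 0 in each panel, at -0.79 to -0.57 for knockout against control, and purple points lie near 0, at -0.05 to 0.20.

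Of the 9 libraries, knockout 3 moved the knockout fold changes of miR-429-3p, miR-200a-3p, miR-200a-5p and miR-200b-3p most when left out. Without it the log2 fold changes for knockout against control were -0.33 for miR-429-3p, -0.33 for miR-200a-3p, -0.33 for miR-200a-5p, -0.31 for miR-200b-3p and -0.18 for miR-200b-5p, still all negative, and those of the chromosome 6 members were 0.42 for miR-200c-3p, 0.15 for miR-141-3p and 0.33 for miR-141-5p. The cluster medians were then -0.33 for miR-200b/miR-200a/miR-429 and 0.33 for miR-200c/miR-141. The same library had the highest striated muscle markers: the summed level of 4 of 4 listed miRNAs (miR-1a-3p, miR-133a-3p, miR-206-3p and miR-499-5p, none at 0) was 10059 CPM there and 451 to 1988 CPM in the other knockouts, against 455 to 1618 CPM in transgene and 217 to 1230 CPM in control libraries. Its summed erythroid level (4 of 4 markers, none at 0) was 112183 CPM, with 71656 and 73016 CPM in the other knockouts, 27202 to 79986 CPM in transgene and 21371 to 52280 CPM in control libraries. Leukocyte markers (5 of 5, none at 0) summed to 560 to 1420 CPM in knockout, 566 to 1297 CPM in transgene and 481 to 883 CPM in control libraries, with knockout 3 again the highest. Endothelial miR-126a arms, at 34553 CPM in knockout 3, were lowest there of the 9 libraries. Their part in the family's values was not tested.

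The remaining lists are given for completeness. Stroma and mesenchyme markers (5 of 5, none at 0) summed to 40740 to 63695 CPM in knockout, 41818 to 61931 CPM in transgene and 38719 to 48467 CPM in control libraries. Neural markers (4 of 4, none at 0) were at 2087 to 2259, 1883 to 3346 and 2021 to 3425 CPM in the same order. Those of pancreas and liver (4 of 4, none at 0) were at 1105 to 11180, 4921 to 21588 and 1174 to 12184 CPM. Their part was not tested either.

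Tubule miRNAs outside the family, a check on the labelled tissue, were present in every library. The summed level of miR-192-5p, miR-194-5p and miR-204-5p was 1967 to 2803 CPM in knockout, 2671 to 3516 CPM in transgene and 4191 to 6650 CPM in control libraries. Both altered groups lay below the controls in this sum, and also in miR-194-5p and miR-204-5p alone. Of all single miRNAs tested, 15.6% lay below all controls in knockout and 12.0% in transgene libraries. For miR-194-5p transgene 1 stood at 40.6 CPM, with 374 and 350 CPM in transgenes 2 and 3. In miR-192-5p transgene 2, at 2202 CPM, stood above controls 1 and 2, at 1562 and 1433 CPM. The assay does not show which cells the miR-200 reads came from.

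The balance between the clusters was measured as the reads of the 5 chromosome 4 members per read of the 3 chromosome 6 members, a ratio that no scaling changes. It was 5.21, 8.24 and 3.33 in the knockout, 10.5, 7.03 and 5.64 in the transgene and 12.1, 9.42 and 10.8 in the control libraries. All knockout libraries lay below all controls, whereas transgene 1 fell within the control range and transgenes 2 and 3 below it. Mean log2 ratios were 2.39 ± 0.653 in knockout, 2.90 ± 0.453 in transgene and 3.42 ± 0.179 in control kidneys (SD, n = 3 each), so that the knockout differed from control by -1.03 and the transgene by -0.52. The knockout difference was -0.71 without knockout 3 and the transgene difference -0.77 without transgene 1 and -0.32 without transgene 3. A sum over members was given no test.

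Pairs with the same seed, one from each cluster, allow the ratio of single miRNAs to be tested. miR-200b-3p per miR-200c-3p was 0.699, 0.984 and 0.50 in the knockout, 1.28, 1.03 and 0.613 in the transgene and 1.61, 1.20 and 1.28 in the control libraries. Each knockout library had fewer miR-200b-3p than miR-200c-3p reads and each control had more, and of the transgene libraries 1 lay within the control range, 1 within the knockout range and 1 between. The mean log2 ratio differed by -0.95 for knockout against control (exact two-sided permutation p = 0.1, the smallest that 3 against 3 libraries allow, or 0.9 adjusted over 15 ratio tests) and by -0.54 for transgene against control (exact p = 0.2, adjusted 0.9). Without knockout 3 the knockout difference was -0.71. The transgene difference was -0.77 without transgene 1 and -0.24 without transgene 3.

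miR-200a-3p per miR-141-3p was 27.5, 50.1 and 15.1 in the knockout, 53.8, 26.0 and 28.8 in the transgene and 56.0, 45.4 and 49.0 in the control libraries. In this pair knockout 2 and transgene 1 stood within the control range and the other 4 libraries below it. The log2 difference was -0.86 for knockout and -0.54 for transgene against control (exact two-sided permutation p = 0.3 each, adjusted 0.9). With 1 library left out it ranged from -1.29 (without knockout 2) to -0.43 (without knockout 3) for the knockout, and from -0.87 (without transgene 1) to -0.34 (without transgene 2) for the transgene.

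**Figure D3:**
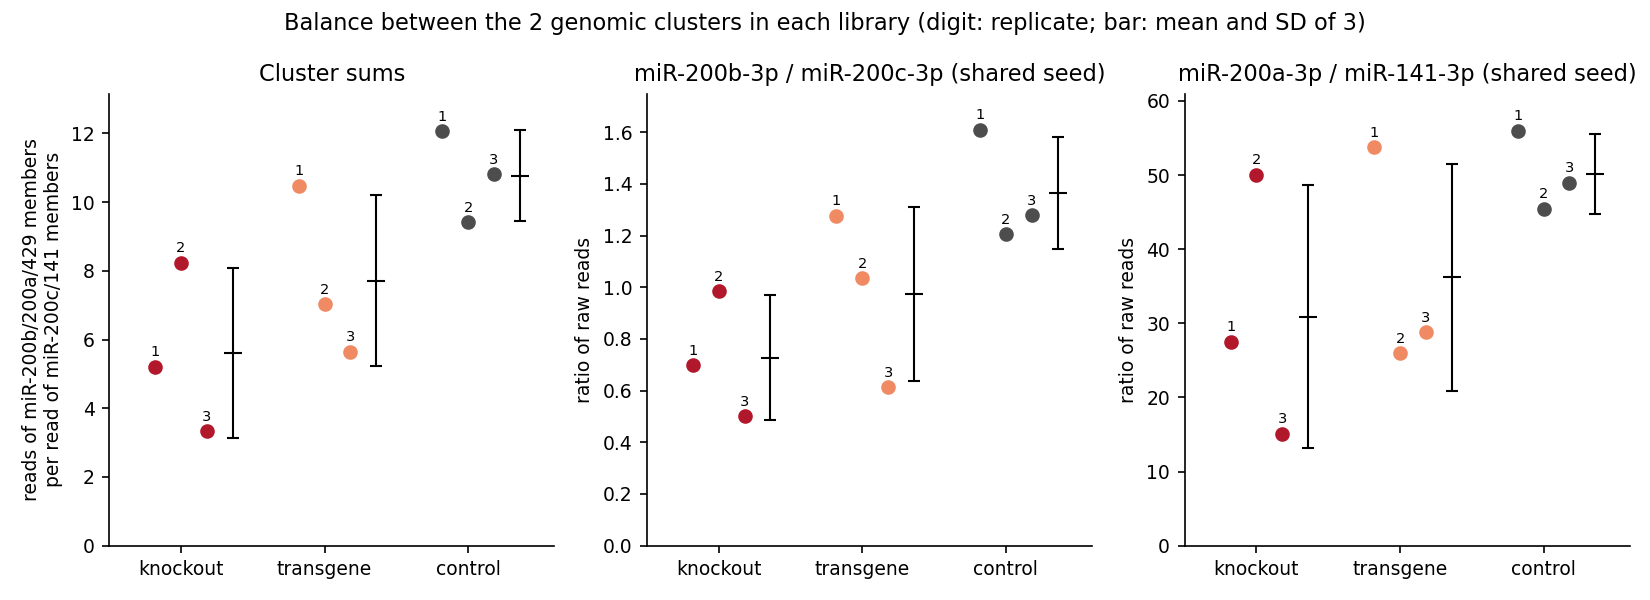
Reads of the miR-200b/miR-200a/miR-429 members per read of the miR-200c/miR-141 members, and the ratios miR-200b-3p to miR-200c-3p and miR-200a-3p to miR-141-3p (y axes, ratios of raw reads from 0), in each library by group; digits are replicate numbers and bars the mean and SD of 3. The cluster ratio is 3.33 to 8.24 in knockout, 5.64 to 10.5 in transgene and 9.42 to 12.1 in control libraries.

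Summed by seed, both 3p groups had lower means in knockout and transgene than in control kidneys. The AAUACUG seed of miR-429-3p, miR-200b-3p and miR-200c-3p reached 16214 ± 5907 CPM in knockout, 19643 ± 4047 CPM in transgene and 24217 ± 1507 CPM in control kidneys, and the AACACUG seed of miR-200a-3p and miR-141-3p reached 7921 ± 3857, 8569 ± 2042 and 13495 ± 2066 CPM (SD, n = 3 each). The AAUACUG seed made up 65.2% to 72.2% of family reads in knockout, 66.2% to 70.8% in transgene and 60.0% to 67.5% in control libraries. These shares overlapped between knockout and control, and between transgene and control.

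DROSHA cuts both strands at the base of a hairpin and so sets one end of each arm. Arm use was compared as 5p reads in percent of 3p reads. For miR-200a it was 1.74, 2.05 and 2.19 in the knockout, 2.07, 2.58 and 1.95 in the transgene and 1.61, 2.87 and 1.49 in the control libraries. Knockout and transgene values lay within the control range. For miR-200b it was 4.55, 4.20 and 4.46 in the knockout, 3.85, 6.0 and 6.5 in the transgene and 4.62, 5.69 and 1.57 in the control libraries. Control 3 was far below the other 8, and it was also the lowest of the 9 for miR-200a and for miR-141, where it was 5.92, 8.63 and 5.85 in the knockout, 7.04, 6.41 and 6.86 in the transgene and 5.97, 9.04 and 4.0 in the control libraries.

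No arm ratio differed between groups by more than the spread of the libraries. The exact two-sided permutation p was between 0.4 and 1.0 in the 9 comparisons of the 3 hairpins (adjusted 0.9 to 1.0). The log2 difference of the miR-200b arm ratio was 0.35 for knockout and 0.62 for transgene against control, and became -0.22 and 0.05 without control 3. Across 302 other hairpins with both arms tested, control 3 was the library with the lowest ratio of minor to major arm in 9.93%, and the same share over the 9 libraries ran from 4.97% to 19.5%.

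**Figure D4:**
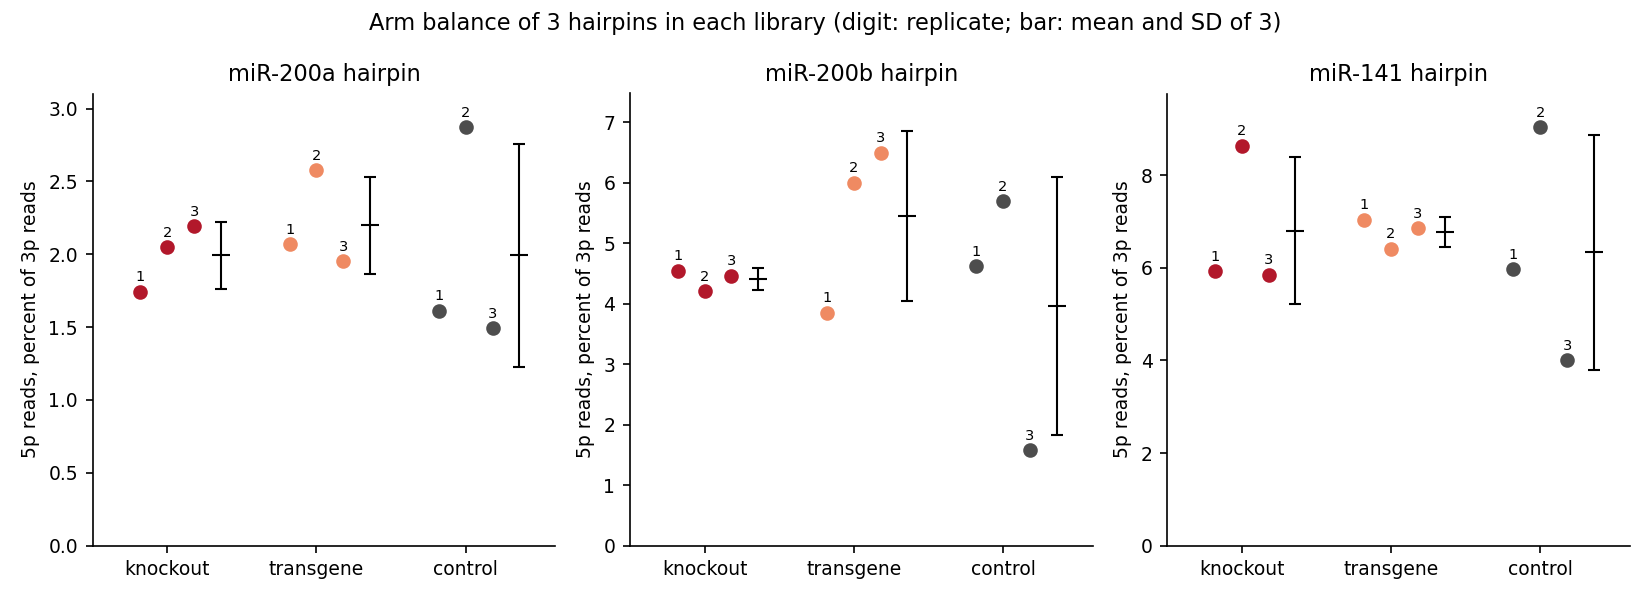
Reads of the 5p arm in percent of reads of the 3p arm (y axes, linear from 0) for the miR-200a, miR-200b and miR-141 hairpins in each library by group; digits are replicate numbers and bars the mean and SD of 3. Control 3 has the lowest value in each panel, with 1.49, 1.57 and 4.0.

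A separate entry of the tables counts reads assigned to the Rfam family of mir-8, mir-141 and mir-200 precursors, a row apart from those of the members. Per 1000000 counted reads it held 1334, 1171 and 552 in the knockout, 1068, 899 and 1121 in the transgene and 1439, 1110 and 1379 in the control libraries. Knockout 3 was again the lowest by a wide margin, and knockout 1 and knockout 2 lay within the control range.

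Between knockout and transgene kidneys no member passed in edgeR's quasi-likelihood test (adjusted p 0.723 to 0.964, with 0.105% of all miRNAs called), none had an unadjusted p under 0.05, where 7.02% of all did (3.56% lower), and DESeq2 called 0. All 5 chromosome 4 members were negative, between -0.47 and -0.12, where 46.9% of all miRNAs were, and the 3 on chromosome 6 positive, between 0.04 and 0.13. Without knockout 3 the folds of miR-200a-3p, miR-200a-5p and miR-200b-3p were 0.27, 0.10 and 0.11, and those of miR-429-3p and miR-200b-5p were -0.06 and -0.16. Without transgene 1 miR-200a-3p was at 0.06, miR-200b-3p at 0.01, miR-141-3p at -0.07 and miR-141-5p at -0.08. Without knockout 1 the chromosome 6 members were negative too, with -0.11 for miR-200c-3p, -0.25 for miR-141-3p and -0.14 for miR-141-5p. Apart from miR-429-3p and miR-200b-5p, negative whichever library was left out, the signs in this comparison thus changed with single libraries of either group. No member had groups that did not overlap, where 5.97% of all miRNAs were lower and 4.4% higher without overlap.

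Other epithelial miRNAs were read beside the family from a list of 16, all of which were tested. By edgeR's quasi-likelihood test 0 of the 16 rose and 0 fell in each comparison. For knockout against control 10 were negative and 6 positive with a median of -0.68. For transgene against control 15 were negative and 1 positive with a median of -0.47. Of all 955 miRNAs tested, 51.1% were negative for knockout and 53.3% for transgene, with medians of -0.03 and -0.04. The positive ones in the knockout were miR-375-3p (2.56), miR-205-5p (0.85), miR-34b-5p (0.46), miR-34c-5p (0.43), miR-203-3p (0.40) and miR-449a-5p (0.35). Of these, miR-375-3p, miR-205-5p and miR-203-3p had all knockout libraries above all controls, as 12.9% of all miRNAs did, and the others overlapped. miR-183-5p and miR-182-5p, from a sensory and epithelial cluster, averaged 1585 and 1664 CPM in knockout, 2073 and 1774 CPM in transgene and 2958 and 2837 CPM in control kidneys. For miR-183-5p the knockout lay below all controls, but transgene 1, at 2747 CPM, exceeded controls 2 and 3, at 2304 and 2293 CPM. For miR-182-5p the transgene lay below all controls, but knockout 1, at 2643 CPM, exceeded controls 2 and 3, at 2471 and 2497 CPM. The tubule miRNA miR-204-5p averaged 1275, 1329 and 2150 CPM, and miR-192-5p, of the proximal tubule, 758, 1474 and 2079 CPM in the same order. Both altered groups lay below all controls for miR-204-5p, whereas for miR-192-5p the knockout did and the transgene overlapped with the controls. Among all miRNAs tested, 15.6% lay below all controls in the knockout and 12.0% in the transgene. miR-34a-5p, a p53 target, averaged 2180, 1863 and 2452 CPM, and both altered groups overlapped with the controls.

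The positive exception in the transgene was miR-375-3p, an endocrine and epithelial miRNA that is also among the pancreas and liver markers above. Its part of their sum ran from 9142 of 9842 CPM in transgene 3 to 329 of 12184 CPM in control 3. It averaged 2624 CPM in knockout, 4780 CPM in transgene and 444 CPM in control kidneys, with log2 fold changes of 2.56 (SE 0.74, edgeR adjusted p = 0.108) and 3.43 (SE 0.77, edgeR adjusted p = 0.398) against control. The libraries of miR-375-3p ranged from 737 to 4856 CPM in knockout, 2502 to 9142 CPM in transgene and 329 to 616 CPM in control kidneys. Neither altered group overlapped with the controls, where 12.9% of all miRNAs in knockout and 11.9% in transgene lay above all controls.

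Profiles most like that of the family over the 9 libraries were sought among 457 other miRNAs with a mean of at least 10 CPM, by the root mean square difference between centred log2 CPM profiles. The nearest were miR-181c-3p with a difference of 0.096, miR-17-3p of the miR-17 cluster with 0.12, miR-423-3p with 0.16, miR-221-3p with 0.16 and miR-99b-3p with 0.17 on the log2 scale, against a median of 0.54 for the 457. miR-181c-3p averaged 137 CPM in knockout, 139 CPM in transgene and 178 CPM in control kidneys. Knockout 3 was the lowest library of the family's mean profile, 0.88 log2 units below the mean of the 9. It was also the lowest for each of the 5, which is no separate result, because the 5 were chosen for likeness to that profile. That profile averages both clusters, and knockout 3 was not the lowest library for miR-200b-5p, miR-200c-3p, miR-141-3p or miR-141-5p.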

How the data were processed

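The authors deposited, per sample, a table of small RNA names with raw read counts and a TPM column. Per the submitters' processing notes, CASAVA 1.8, Bowtie2 and mm10 were used, with no role or order given. By its values, the deposited TPM column is the count per 1000000 counted reads (gap at most 0.005), and it was not used for tests. Mature and hairpin reads of a name were added. Groups followed the sample titles.

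Counts of known miRNAs were filtered (filterByExpr), scaled by TMM (factors 0.882 to 1.13) and tested with edgeR 4.0.16 (R 4.3.3), group as a factor of 3 levels, threshold 0.05. The common biological coefficient of variation was 0.489. DESeq2 1.42.0 was an alternative. The test was checked on simulated counts with changes larger than those of the members, so the check does not bear on changes of the members' size. Ratios used raw counts with a pseudocount of 1 and exact permutation tests (scipy 1.17.1). Replicates of a group differed by more than read sampling. Reads carry no molecular identifiers.

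Named miRNAs were the members, their other arms, the 6 most abundant of the epithelial list, those of the list positive in the knockout and the 5 nearest profiles. Members and lists were chosen with earlier results of these data known. Alternatives covered scaling, filter, test, mature rows only, pseudocount, the 2 groups alone, replicate block and leaving out each library. Loci came from RefSeq and had the same coordinates in GENCODE vM21.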

Additional observations from a re-analysis of the deposited data

How the results depend on the processing

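No alternative called a member: 0 with the replicate block, with DESeq2, and 0 to 0 with each library left out, in all 3 comparisons. Over all miRNAs DESeq2 called 4 for transgene against control and 113 for knockout against control where edgeR called 0, and 3 for knockout against transgene where edgeR called 1. Leaving out knockout 1 gave 48 for knockout against control. For knockout against transgene the 1 became 0 with the replicate block, with the 2 groups fitted alone, and without any 1 library except transgene 3. Correlations of same-numbered libraries, as deviations from group means, were -0.30 to 0.10, with 1 of 9 over 0.1. The block changed no call of a member. Knockout 1 and transgene 3, which differ in number, reached 0.35. The labels give no litter or batch, and so few libraries cannot show whether any of them are paired.

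For transgene against control miR-200b-5p was 0.14 with total miRNA counts, 0.076 with all counted reads, 0.00044 with the 2 groups alone and 0.13 with the replicate block, and miR-141-3p was 0.12 and 0.063 with the 2 count scalings. For knockout against control miR-141-3p was 0.18 and 0.075 with the same scalings, and for knockout against transgene miR-141-5p was -0.022 with all counted reads. The cause was not tested.

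With 1 library left out, folds for transgene against control ranged from -0.53 to 0.13 for miR-200b-5p, -0.080 to 0.26 for miR-200c-3p and -0.18 to 0.24 for miR-141-5p. For knockout against control they ranged from -0.29 to 0.15 for miR-141-3p and -0.13 to 0.33 for miR-141-5p. For knockout against transgene they ranged from -0.37 to 0.27 for miR-200a-3p, -0.57 to 0.10 for miR-200a-5p, -0.38 to 0.11 for miR-200b-3p, -0.11 to 0.33 for miR-200c-3p, -0.25 to 0.28 for miR-141-3p and -0.14 to 0.27 for miR-141-5p. The cluster ratio difference ranged from -0.77 to -0.32 for transgene and from -1.36 to -0.71 for knockout against control, and was -0.84 to -0.19 for knockout against transgene. The ratio miR-200a-3p to miR-141-3p ranged from -0.75 to 0.11 for knockout against transgene. Arm ratios for knockout against control ranged from -0.12 to 0.36 for miR-200a, -0.22 to 0.71 for miR-200b and -0.13 to 0.45 for miR-141, and the miR-141 arm ratio from -0.12 to 0.47 for transgene against control and -0.20 to 0.080 for knockout against transgene.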
